A study of Mus musculus with 8 samples.

Results

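The interleukin-1 family genes and receptors described here are Il1a, Il1b, Il1rn, Il1r1, Il1r2, Il1rap, Il18, Il18r1, Il18rap and Il18bp. They were chosen by symbol: every probe set that the platform annotation maps to exactly 1 of the 10 symbols was taken, which gave 18 of the 45037 probe sets that are not array controls, and 10 of 18193 annotated genes. Expression was measured in spleen cells of male mice aged 8 weeks on Affymetrix arrays, with 1 array per sample. The 4 Yaa samples came from B6.SB-Yaa/J males, whose Y chromosome is known to carry a translocated piece of the distal X chromosome with an extra copy of Tlr7. The 4 wild-type samples came from C57Bl/6J males. The labels name no treatment, and red cells had been lysed in all suspensions, although the tissue label reads whole spleen tissue. RNA was prepared separately from each animal per the design text, apart from the pool named next. Samples are called Yaa 1 to 4 and wild type 1 to 4 after the numbers in their titles. Yaa 3 pooled 2 spleens. The source label of Yaa 2 speaks of males in the plural, although the design text gives a pool for Yaa 3 only. The strains may differ outside the Yaa chromosome, which was not analysed here, so a difference between the groups cannot be assigned to that chromosome.

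Interleukin-1 is the main early signal of innate inflammation. IL-1α, from Il1a, and IL-1β, from Il1b, bind the signalling receptor IL-1R1, which then recruits the accessory protein encoded by Il1rap and passes the signal through Myd88 and the Irak kinases to NF-kB. IL-1β and the related cytokine IL-18, from Il18, are made as inactive precursors that caspase-1 cleaves in inflammasomes. Several members hold the signal down: Il1rn encodes the receptor antagonist, Il1r2 a decoy receptor without a signalling domain that neutrophils and monocytes carry and shed, and Il18bp a secreted protein that captures IL-18. IL-18 acts on T and NK cells through Il18r1 and Il18rap and promotes interferon-γ.

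The values are quantile-normalized MAS5 signals, the summary intensity of a probe set, and differences are on the log2(signal + 16) scale, which understates changes of dim probe sets. A probe set was tested if its mean log2 signal lay above the median of all, which 14 of the 18 member probe sets did, with each of the 10 genes represented. Where a gene had several, the brightest stands for it unless another is named. Array signals of different probe sets cannot be set against each other, so levels are compared only between samples. Precision is limited by having 4 arrays a group. The trimmed mean signal as deposited ran from 106 to 162 in Yaa and from 143 to 192 in wild type.

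In the Yaa group 2 arrays, Yaa 2 and Yaa 3, lay far from all others. On the first principal component, which held 56.9% of the variance, the score of Yaa 2 was 68.8 and that of Yaa 3 was -92.4. The scores of Yaa 1 and Yaa 4 were 2.75 and -2.14, and those of wild type ran from -18.4 to 20.05. B cell markers, which define the largest lymphocyte class of a spleen, had a mean log2 signal of 5.73 in Yaa 3 and of 10.21 to 10.93 in the other Yaa samples, against 10.33 to 10.68 in wild type. T cell markers stood at 5.61 in Yaa 3, against 8.54 to 9.05 in wild type. Erythroid markers stood at 10.28 in Yaa 2, against 11.88 to 12.25 in wild type. The members are therefore also given without these 2 arrays. In such bulk samples, fewer cells of a type and less RNA per cell cannot be told apart.

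Over all arrays the genes with the largest differences were the decoy receptor Il1r2 and the antagonist Il1rn, and the ligand Il1b was high in 2 Yaa samples only. Their promoters as RefSeq lists them on GRCm38.p6 are shown because these 3 members differed most over all arrays by their brightest probe sets. Il1b did not keep this place: without Yaa 2 and Yaa 3 its difference was -0.047, and that of Il1r1 was 0.79. All 10 genes had an entry, with 15 windows in all. Each window runs from 250 bases before to 50 after a listed start, 5′ to 3′ on the gene's strand, and capitals mark matches on either strand to any of the short motifs searched, which were picked after the sequences had been seen. Il1r2 lies on the plus strand at chr1:40085843-40086142, the most upstream of 3 listed Il1rn starts on the plus strand at chr2:24336610-24336909, and Il1b on the minus strand at chr2:129371090-129371389.
Il1r2: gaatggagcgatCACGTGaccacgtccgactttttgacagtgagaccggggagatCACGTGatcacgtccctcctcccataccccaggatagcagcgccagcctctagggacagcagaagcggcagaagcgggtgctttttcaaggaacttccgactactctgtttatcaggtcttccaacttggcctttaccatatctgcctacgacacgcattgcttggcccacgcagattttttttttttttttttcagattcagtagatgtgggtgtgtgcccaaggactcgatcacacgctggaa
Il1rn: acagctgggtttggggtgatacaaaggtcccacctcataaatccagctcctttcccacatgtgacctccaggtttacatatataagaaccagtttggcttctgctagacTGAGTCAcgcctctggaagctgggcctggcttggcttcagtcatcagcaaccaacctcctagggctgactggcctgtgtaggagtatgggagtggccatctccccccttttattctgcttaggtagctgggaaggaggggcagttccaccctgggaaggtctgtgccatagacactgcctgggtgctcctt
Il1b: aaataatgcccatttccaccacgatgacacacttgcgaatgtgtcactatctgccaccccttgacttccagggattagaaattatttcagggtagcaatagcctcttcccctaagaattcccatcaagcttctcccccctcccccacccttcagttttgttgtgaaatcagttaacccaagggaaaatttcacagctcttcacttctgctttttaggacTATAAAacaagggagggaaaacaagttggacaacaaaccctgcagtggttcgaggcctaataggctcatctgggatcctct
Searched for was the E-box CACGTG, which is bound by basic helix-loop-helix factors; the Il1r2 window held it 2 times, and 7.15% of the 32851 windows of this length in the table held it. The AP-1 site, searched as TGANTCA and bound by Fos and Jun proteins, occurred 1 time in the printed Il1rn window and in 7.81% of windows. The Il1rn windows at the other listed starts held no AP-1 match. The core promoter element called the TATA box, searched as TATAAA, occurred 1 time in the Il1b window and in 13.6% of windows. The C/EBP motif, read by factors of myeloid cells and searched as TTGCNNAA, was found in 10.8% of windows. For PU.1, a master factor of the myeloid lineage, the letters searched were AGAGGAAG, found in 4.55% of windows. The consensus of NF-kB was found in 4.51%, and none of the 3 windows printed held a match to these last 3. No 2 of these matches overlapped. A match describes the letters only, and says nothing of a bound factor.

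Il1r2 was higher in every Yaa sample than in any wild-type sample. Its signal was 723, 1339, 1112 and 603 in Yaa 1 to 4, against 291, 423, 447 and 446 in wild type 1 to 4. The highest values were those of Yaa 2 and Yaa 3, yet the lowest Yaa value still lay above the highest of wild type. Mean log2 signal was 9.84 ± 0.52 in Yaa and 8.69 ± 0.28 in wild type (SD, n = 4 each), a log2 fold change of 1.15 ± 0.26 (SE), or 2.22-fold. It did not pass limma's test over all probe sets (limma adjusted p = 0.557), in which 0.00444% of probe sets, 1 of 22518, passed. With limma array weights, which set Yaa 2 and Yaa 3 at 0.218 and 0.223 and the other arrays at 0.836 to 2.73, the difference was 0.78 ± 0.17 (SE; limma adjusted p = 0.0746). Without Yaa 2 and Yaa 3 it was 0.71 ± 0.18 (SE; limma adjusted p = 0.167).

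Il1rn, the receptor antagonist, was measured by 3 tested probe sets, of which 2 did not overlap between the groups. The brightest, 1451798_at, had signals of 130.2, 295, 336 and 111 in Yaa 1 to 4, against 94.0, 82.4, 80.8 and 63.8 in wild type 1 to 4. All Yaa samples lay above all wild-type samples, with Yaa 2 and Yaa 3 the highest. Its mean log2 signal was 7.73 ± 0.75 in Yaa and 6.58 ± 0.19 in wild type (SD, n = 4 each), which is a difference of 1.15 ± 0.33 (SE), or 2.22-fold, with a limma adjusted p of 0.814. The probe set 1423017_a_at had 99.0, 193, 256 and 104 in Yaa, against 81.7, 89.3, 72.7 and 39.9 in wild type, again with no overlap, and a log2 fold change of 0.99 ± 0.32 (SE). The dimmer 1425663_at had 47.1, 83.0, 118 and 40.0 in Yaa, against 35.04, 49.1, 30.1 and 30.8 in wild type, so that Yaa 1 and Yaa 4 lay below wild type 2, and its log2 fold change was 0.68 ± 0.28 (SE). The 3 probe sets read 1 gene and are not independent. Without Yaa 2 and Yaa 3 the differences were 0.51, 0.47 and 0.20 in the same order (limma adjusted p 0.353 to 0.881), and with array weights 0.73, 0.61 and 0.30 (limma adjusted p 0.178 to 0.653).

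Il1b, the main secreted IL-1 of phagocytes, was high in Yaa 2 and Yaa 3 and near wild type in both other Yaa samples. Its signal was 1151, 2899.6, 2594 and 1035 in Yaa 1 to 4, against 1009.8, 1229, 1132 and 1152 in wild type 1 to 4. Yaa 2 and Yaa 3 were thus above every wild-type sample, whereas Yaa 1 and Yaa 4 lay inside the wild-type range. Mean log2 signal was 10.77 ± 0.77 in Yaa and 10.16 ± 0.12 in wild type (SD, n = 4 each), which is a difference of 0.61 ± 0.33 (SE) with a limma adjusted p of 0.997. The difference was -0.047 ± 0.11 (SE) without Yaa 2 and Yaa 3, and 0.090 ± 0.18 (SE) with array weights. Taking out Yaa 2 or Yaa 3 alone left 0.37 or 0.42.

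Il1a, the IL-1 that many cells hold inside and release on damage, was dim. Its signal was 23.3, 42.3, 44.9 and 16.4 in Yaa 1 to 4, against 16.1, 34.3, 35.02 and 22.2 in wild type 1 to 4. The groups overlapped, with Yaa 2 and Yaa 3 again the highest, and the log2 fold change was 0.13 ± 0.26 (SE), which was -0.24 without those 2 arrays and -0.18 with array weights. For scale, the 48 probe sets of 27 genes known from other organs, such as liver, muscle and skin, had mean signals with a median of 8.19 and a 90th percentile of 37.7, so Il1a lay in a range where this table, which carries no detection calls, cannot show that the gene was expressed.

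Il18 varied least in wild type and in both directions in Yaa. Its signal was 405, 266, 844 and 348 in Yaa 1 to 4, against 429.6, 427, 417 and 411 in wild type 1 to 4. Yaa 1, Yaa 2 and Yaa 4 lay below every wild-type sample and Yaa 3 above all of them, so that the mean log2 signals of 8.78 ± 0.69 in Yaa and 8.77 ± 0.029 in wild type (SD, n = 4 each) were nearly equal. The log2 fold change was 0.0063 ± 0.30 (SE; limma adjusted p = 0.9999), and without Yaa 3 it was -0.32 (limma adjusted p = 0.715), -0.16 without Yaa 2 and Yaa 3, and -0.19 with the values as deposited. The median over all tested probe sets was -0.20 without scaling, -0.11 after median centring and -0.010 after quantile normalization, so sizes under the other scalings are read against these medians. Markers of splenic macrophages, cells known to express Il18, stood at 9.25, 8.90, 10.31 and 8.93 in Yaa 1 to 4, against 8.98 to 9.10 in wild type. Yaa 3 lay above wild type for these markers and for Il18, and Yaa 2 and Yaa 4 below it for both. Yaa 1 lay above it for the markers but below it for Il18. The part of these markers in the Il18 values was not tested. Il18bp, the secreted IL-18 inhibitor, ranged from 50.4 to 73.5 in Yaa and from 46.5 to 60.8 in wild type, and its log2 fold change was 0.12 ± 0.15 (SE), which was -0.0040 without Yaa 2 and Yaa 3.

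**Figure D1:**
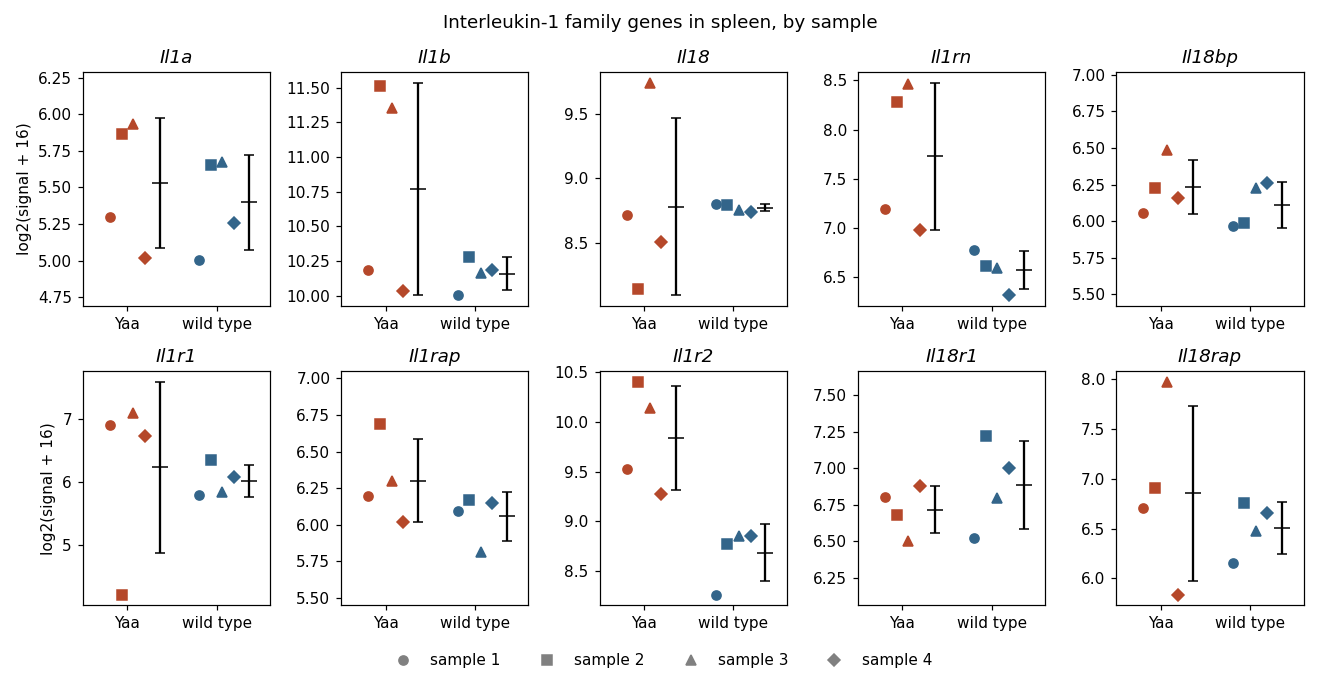
Log2(signal + 16) of the 10 genes, each by its brightest probe set, with Yaa samples at left and wild-type samples at right of each panel; marker shapes give the sample number and bars the mean ± SD (n = 4). The Il1r2 and Il1rn panels show no overlap between the groups, the Il1b panel shows Yaa 2 and Yaa 3 alone above wild type, and the Il1r1 panel shows Yaa 2 far below all other samples.

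The signalling receptor Il1r1 split the Yaa group in another way, with Yaa 2 alone low. Its brighter probe set had signals of 103, 2.60, 120.4 and 89.5 in Yaa 1 to 4, against 39.4, 65.2, 41.3 and 51.8 in wild type 1 to 4. Yaa 1, Yaa 3 and Yaa 4 lay above every wild-type sample and Yaa 2 lay far below all of them. The signal of Yaa 2 was under 8.19, the median of the mean signals of genes known from other organs. The split rests on this 1 sample. The log2 fold change over all arrays was 0.22 ± 0.57 (SE; limma adjusted p = 0.997), and without Yaa 2 it was 0.89 ± 0.18 (SE; limma adjusted p = 0.205), and 0.79 ± 0.20 (SE; limma adjusted p = 0.163) without Yaa 2 and Yaa 3. The sign was not stable: the difference was -0.13 with log2(signal + 1), -0.0061 with the values as deposited, -0.0044 without Yaa 1 and -0.071 without Yaa 3. The other Il1r1 probe set, 1459777_at, was not tested, with signals from 0.218 to 1.07 in Yaa and from 0.317 to 8.37 in wild type.

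Il1rap, the accessory chain that IL-1R1 needs to signal, differed little. Its brightest probe set had 57.5, 87.0, 62.8 and 48.8 in Yaa 1 to 4, against 52.4, 56.1, 40.3 and 54.8 in wild type 1 to 4, with a log2 fold change of 0.24 ± 0.18 (SE), which was 0.052 without Yaa 2 and Yaa 3. The other tested one, 1421843_at, ranged from 30.2 to 41.4 in Yaa and from 24.6 to 35.3 in wild type and had 0.21 ± 0.16 (SE). Of the 3 that were not tested, 1449585_at had a log2 fold change of -0.17 ± 0.19 (SE) in the fit of all probe sets, and both others had mean signals under 16. For the transcript variants of Il1rap, which are known to encode membrane and soluble forms, the files do not state which probe set reads which.

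Over all arrays the receptor chains for IL-18 had opposite signs by their brightest probe sets, each difference smaller than its SE. With array weights both were below 0, at -0.18 for Il18r1 and -0.060 for Il18rap. Both were also below 0 without Yaa 3. Il18r1, the binding chain, had 95.7, 86.7, 74.8 and 101 in Yaa 1 to 4, against 75.8, 133, 95.2 and 112 in wild type 1 to 4, and a log2 fold change of -0.17 ± 0.17 (SE), which was -0.046 without Yaa 2 and Yaa 3. Il18rap, the signalling partner, had 88.9, 104, 236 and 41.2 in Yaa 1 to 4, against 55.4, 92.1, 72.9 and 84.6 in wild type 1 to 4. Yaa 3 was the highest of all samples and Yaa 4 the lowest, and the log2 fold change of 0.35 ± 0.39 (SE) was -0.025 without Yaa 3 and -0.24 without Yaa 2 and Yaa 3. The second Il18rap probe set had 62.9, 74.4, 181 and 40.3 in Yaa, against 31.5, 40.1, 63.8 and 45.9 in wild type, and 0.65 ± 0.36 (SE), or 0.29 without Yaa 3 and 0.15 without both. Markers of NK cells, which carry this receptor, stood at 8.82 in Yaa 3 and at 7.15 in Yaa 4, against 7.25 to 7.65 in wild type, and T cell markers were lowest in Yaa 3; their part in the Il18rap values was not tested.

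Over the 10 genes, 9 had a higher mean in Yaa and 1, Il18r1, a lower one, with a median log2 fold change of 0.23, where 45.9% of all 10340 tested genes had a higher mean and their median was -0.018. Leaving out Yaa 3 brought the family median to 0.017, and leaving out both distant arrays to -0.025. Of the 14 tested probe sets, 0 passed limma's test. With array weights 0 passed as well, where 0.453% of all probe sets passed as higher and 0.182% as lower, and with both distant arrays left out again 0, where 0.457% of all passed. At an unadjusted p under 0.05, 4 were higher, that of Il1r2 and all 3 of Il1rn, and 0 were lower, or 28.6% higher against a background of 2.97% of all probe sets higher and 1.76% lower. The groups did not overlap for 3 of 14, all higher, or 21.4%, against 2.44% of all probe sets higher and 1.67% lower. These 3 come from 2 genes. The members were chosen together as 1 family and some share cell types, so they do not count as separate observations.

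**Figure D2:**
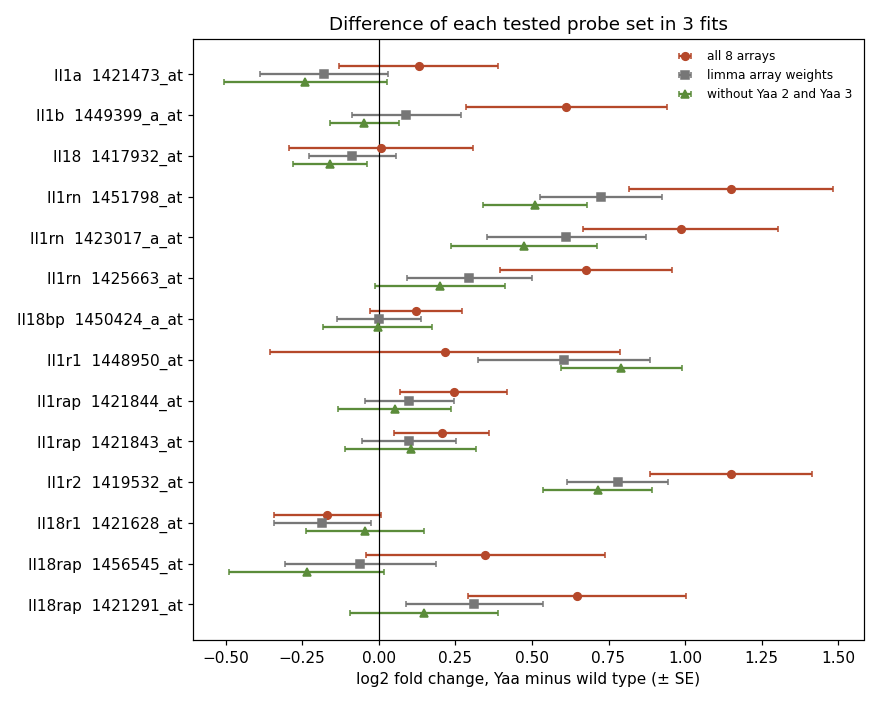
Log2 fold change, Yaa minus wild type, with its SE for the 14 tested probe sets of the family in 3 fits: all 8 arrays, limma array weights, and without Yaa 2 and Yaa 3. Il1r2 and the 3 Il1rn probe sets are above 0 in all 3 fits, as are Il1r1, both tested Il1rap probe sets and the dimmer Il18rap probe set. Il1b moves to -0.047 without Yaa 2 and Yaa 3, and Il1r1 moves up to 0.79.

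Il1r2, Il1r1, Il18r1 and Il18rap are neighbours on chromosome 1, in a cluster that also holds Il1rl2 and Il1rl1. Along the cluster the log2 fold changes were 1.15 for Il1r2, 0.22 for Il1r1, -0.37 for Il1rl2, -0.17 for Il18r1 and 0.35 for Il18rap, while Il1rl1 was not analysed here. Il1a and Il1b are near each other on chromosome 2, with 0.13 and 0.61. Neighbours in the cluster thus differed in sign, and none of these values passed the test.

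Markers of phagocytes were also higher on average in Yaa, but only those of monocytes and macrophages followed the order of Il1rn within Yaa. Over 11 tested neutrophil markers the mean log2 signal was 11.06, 8.84, 10.57 and 9.86 in Yaa 1 to 4, against 9.01, 8.56, 8.29 and 8.39 in wild type 1 to 4. Over 11 tested monocyte and macrophage markers it was 8.68, 8.79, 9.49 and 8.18 in Yaa, against 7.83, 7.94, 7.91 and 7.88 in wild type, with no overlap. All 11 genes of each list had a higher mean in Yaa, where 45.9% of all tested genes did. limma called 0 of either, with 8 and 7 higher at an unadjusted p under 0.05, where 2.97% of all probe sets were higher. With array weights it called 9 and 3, where 0.453% of all probe sets rose. The weights set Yaa 2, the lowest Yaa sample in neutrophil markers, at 0.218. Within Yaa, the monocyte and macrophage markers were highest in Yaa 3, then Yaa 2, Yaa 1 and Yaa 4, which is the order of Il1rn, and Il1r2 differed from it only in that Yaa 2 stood above Yaa 3. The neutrophil markers ran in another order. They were highest in Yaa 1, where Il1b was inside the wild-type range, and in Yaa 2, where Il1b and Il1r2 peaked, they lay below wild type 1. The part of either marker list in the Il1r2, Il1rn and Il1b differences was not tested.

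**Figure D3:**
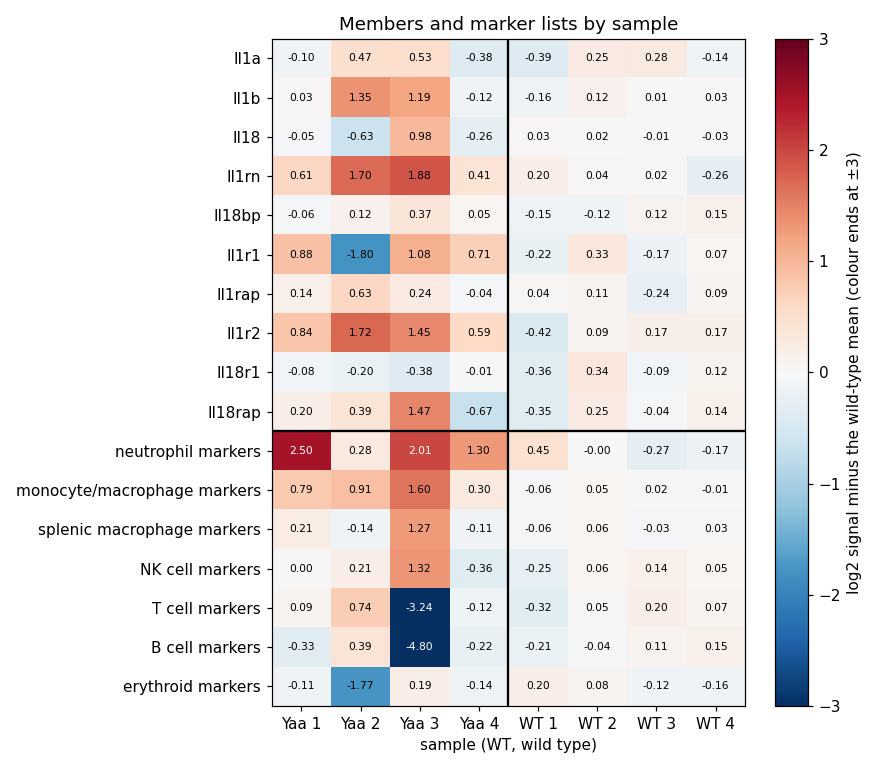
Log2 signal of each member gene and mean log2 signal of 7 marker lists in every sample, minus the mean of the 4 wild-type samples (WT). Yaa 2 has Il1b at 1.35 and Il1r2 at 1.72 with neutrophil markers at 0.28, while Yaa 1 has neutrophil markers at 2.50 with Il1b at 0.03; monocyte and macrophage markers stand at 0.79, 0.91, 1.601 and 0.30 in Yaa 1 to 4, and Il1rn at 0.61, 1.70, 1.88 and 0.41; colours end at ±3.

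The genes whose profile over the 8 arrays was most like that of Il1b were found by the root mean square difference of log2 signals, each centred on its own mean. They were Rnf149 (0.148), the fungal receptor gene Clec7a (0.149), Csf2rb2, a receptor chain for interleukin-3 (0.163), Ifi207 (0.172) and the chemokine gene Ccl6 (0.173). Rnf149 had signals of 520, 1220, 1402 and 551 in Yaa 1 to 4, against 413, 516, 505 and 588 in wild type 1 to 4, which is high in the same 2 Yaa samples. The likeness rests on them: of these 5 genes, 0 were among the nearest 5 without Yaa 2, and 0 without Yaa 3. For Il1r2 the nearest were the chemokine receptor gene Ccr1 (0.143), Cdkn1a, encoding a cell cycle inhibitor (0.154), Id2 (0.209), G0s2 (0.218) and S100a6 (0.222). Ccr1 had 268, 441, 396 and 234 in Yaa, against 119.8, 123, 151 and 169.9 in wild type, also with no overlap. For Il1r2, 3 of the 5 were still nearest without Yaa 2 and 2 without Yaa 3.

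Among 16 tested genes for the inflammasome and the proteases that cut IL-1 precursors, 12 had a higher and 4 a lower mean in Yaa, with a median log2 fold change of 0.30. Of all tested genes 45.9% had a higher mean. limma called 0 of the list, with 6 higher at an unadjusted p under 0.05, where 2.97% of all probe sets were higher. The 4 with the smallest p were Naip5, a sensor of bacterial flagellin, at 0.52 ± 0.14 (SE), the neutrophil protease gene Ctsg at 1.52 ± 0.48 (SE), Mefv, encoding pyrin, at 0.84 ± 0.30 (SE) and Casp4, the caspase for cytosolic lipopolysaccharide, at 0.59 ± 0.24 (SE). Casp4 was at 0.37 without Yaa 2, and Mefv at 0.30 without Yaa 2 and Yaa 3. Naip5 had 99.4, 116.4, 142 and 97.6 in Yaa 1 to 4, against 73.6, 70.4, 69.1 and 81.1 in wild type 1 to 4, with no overlap. Ctsg had 259, 39.0, 255 and 159 in Yaa, against 62.8, 33.8, 37.9 and 33.6 in wild type, high in every Yaa sample but Yaa 2. Of the core machine, Casp1, Pycard and Gsdmd differed little. Casp1, which cleaves both precursors, had 0.10 ± 0.17 (SE), its adaptor Pycard -0.013 ± 0.12 (SE) and the pore gene Gsdmd 0.0023 ± 0.16 (SE). The sensor Nlrp3 had 0.40 ± 0.34 (SE), which was -0.21 with array weights. Its signal was 170 and 231 in Yaa 2 and Yaa 3, against 65.0 to 115 in wild type. The sensor Aim2 had the lowest value of the list, -0.51 ± 0.37 (SE), which was -0.79 with array weights. Casp1, Pycard, Gsdmd and Nlrp3 are named for their roles, and Aim2 after its value was seen. With array weights 3 genes rose, all serine proteases of neutrophil granules: Ctsg by 2.04 ± 0.26, Elane by 2.27 ± 0.37 and Prtn3 by 1.66 ± 0.29 (SE; limma adjusted p 0.00838 to 0.0318), of which Elane and Prtn3 are named after their values were seen. In Yaa 2 their signals were 39.0, 32.8 and 57.4, against 33.6 to 62.8, 41.3 to 106 and 54.1 to 117 in wild type. Over all probe sets 0.453% rose with array weights, which set Yaa 2 at 0.218.

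The signalling chain below the receptors showed little difference. Of 15 tested genes 6 had a higher and 9 a lower mean, with a median of -0.046, where 45.9% of all tested genes had a higher mean. limma called 0. At an unadjusted p under 0.05, where 2.97% of all probe sets were higher, 1 of these genes was higher. That was Irak3, a brake on IL-1 and Toll-like receptor signalling in macrophages, with 98.0, 107, 90.5 and 96.1 in Yaa 1 to 4, against 63.8, 75.8, 54.6 and 83.5 in wild type 1 to 4, which is a difference of 0.43 ± 0.14 (SE) with a limma adjusted p of 0.959. The other tested Irak3 probe set had 0.19 ± 0.27 (SE). Myd88, the adaptor, had 0.22, which was 0.11 without Yaa 3. The kinase subunit gene Ikbkb had -0.41, which was -0.70 without Yaa 2 and -0.15 without Yaa 3, and Tab1 had -0.27, which was -0.053 without Yaa 2. Of the other tested probe sets of Ikbkb 3 were lower and 1, at 0.26, higher.

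Genes known to be induced by IL-1 had higher means in 11 of 12 tested, of 21 on the array, with a median of 0.53. With array weights Ptgs2 moved from 0.031 to -0.41 and Vcam1 from 0.096 to -0.061, and the other genes with a higher mean stayed above 0. The list median without Yaa 2 and Yaa 3 was not computed. Of all tested genes 45.9% had a higher mean. limma called 0 of the list, with 5 higher at an unadjusted p under 0.05, where 2.97% of all probe sets were higher. With array weights 1 rose, the acute phase gene Hp, by 1.77 ± 0.24 (SE, limma adjusted p = 0.0116), where 0.453% of all probe sets rose. Hp had 461, 162, 422 and 203 in Yaa 1 to 4, against 114, 82.4, 98.7 and 80.3 in wild type 1 to 4. The neutrophil chemokine gene Cxcl2 had 621, 2130.4, 1513 and 489 in Yaa, against 320, 394, 441 and 296 in wild type, a difference of 1.44 ± 0.43 (SE) on the log2 scale with a limma adjusted p of 0.841, and, like Il1b, was highest in Yaa 2 and Yaa 3; the difference was 0.60 without them and 0.83 with array weights. Nfkbiz, an NF-kB cofactor, had 0.58 ± 0.21 (SE) and Socs3, a feedback inhibitor of cytokine receptors, 0.86 ± 0.36 (SE), and neither overlapped between the groups. Without Yaa 2 they were at 0.39 and 0.50, and without Yaa 2 and Yaa 3 at 0.27 and 0.45. One other Nfkbiz probe set had -0.12. Many of these genes also answer to Toll-like receptors and other cytokines, and Hp is expressed by neutrophils as well.

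Genes known to answer to IL-18 had higher means in 5 of 7 tested, with a median of 0.29, and limma called 0, with 2 higher at an unadjusted p under 0.05. Of all tested genes 45.9% had a higher mean, and 2.97% of all probe sets were higher at that p. Nfil3, a transcription factor of NK cells, had 1.16 ± 0.39 (SE), Tnf 0.62 ± 0.26 (SE), Ifng, the interferon-γ gene, 0.29 ± 0.17 (SE) and Gzmb, a cytotoxic protease gene, 0.62 ± 0.42 (SE). For Nfil3 the signal was 19.0 in wild type 1 and 68.8 to 88.1 in the other wild-type samples. Its signal in Yaa 4, 76.1, lay inside the wild-type range, and without wild type 1 its difference was 0.80. Gzmb was at 0.21 without Yaa 3, at 0.97 without Yaa 4 and at -0.11 without Yaa 2 and Yaa 3. Ifng had 104, 97.0, 91.2 and 65.3 in Yaa 1 to 4, against 57.7, 83.8, 72.9 and 64.3 in wild type 1 to 4, so Yaa 4 lay inside the wild-type range. Of the wider IL-1 family, 2 genes were tested and both were lower on average. Il1rl2, the IL-36 receptor gene, had 45.9, 40.8, 40.3 and 28.2 in Yaa, against 56.1, 51.3, 51.5 and 58.5 in wild type, with no overlap and a difference of -0.37 ± 0.15 (SE) with a limma adjusted p of 0.997. Sigirr, an inhibitory receptor, had 125, 162, 70.0 and 116.4 in Yaa, against 161, 154, 142 and 160.4 in wild type, and -0.39 ± 0.21 (SE), which was -0.19 without Yaa 3.

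**Figure D4:**
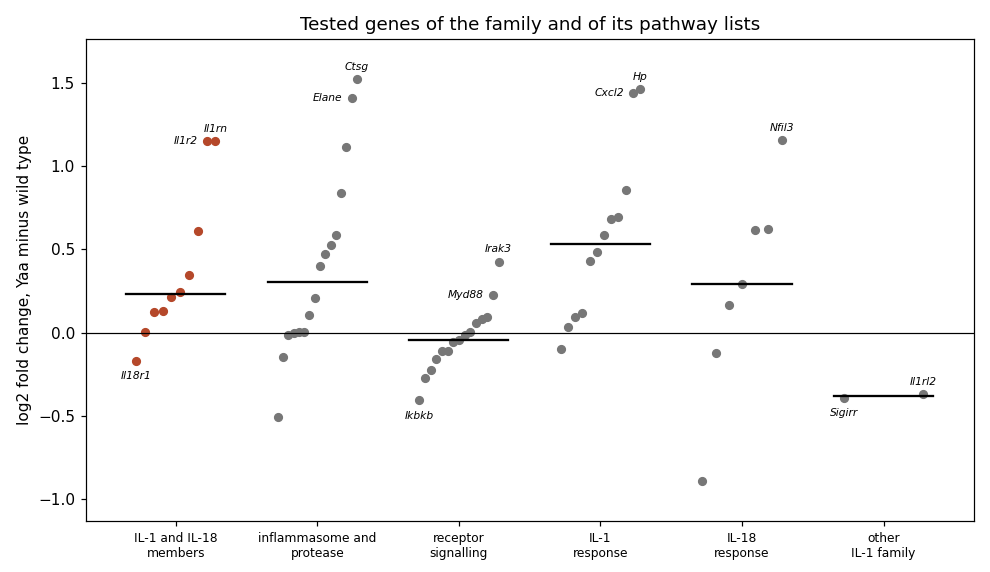
Log2 fold change, Yaa minus wild type, of every tested gene of the family and of 5 pathway lists, with bars at the median of each list. The receptor signalling genes centre near 0, at a median of -0.046, and the IL-1 response genes at 0.53, led by Hp and Cxcl2.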

How the data were processed

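Per the submitters' processing notes, the authors used MAS5, whose signal is a linear intensity summarised per probe set. Details of version, scaling target and filters were not given in the sources used here. Of 45101 probe sets 64 were array controls and were dropped. Array levels differed as deposited, so the arrays were quantile normalized and taken as log2(signal + 16). The 22518 probe sets above the median of mean log2 signal were tested in limma 3.58.1 under R 4.3.3 (lmFit, then eBayes with trend), 4 Yaa against 4 wild-type arrays, with p-values adjusted over all of them by Benjamini-Hochberg and a threshold of 0.05.

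Gene names came from the platform annotation, with symbols brought to GRCm38.p6 by Entrez ID. Of the probe sets 34945 had 1 symbol, 932 several and 9160 none. Named were all members, up to 4 genes per pathway list by smallest p, and the 5 genes most like Il1b and Il1r2. The members and lists were chosen with earlier results of these data known. No 2 arrays held identical values; correlations between them ran from 0.810 to 0.987. In a simulated Yaa against wild type comparison with 4 arrays each and 22518 probe sets, limma recovered 37% of 2-fold and 90% of 4-fold changes, with 8 false calls among 135. The simulation drew independent noise for each probe set, with the same spread in both groups and no distant arrays. In the measured data Yaa 2 and Yaa 3 lay far from all others, so these rates do not carry over to the measured comparison. Alternatives were other pseudocounts, filters and scalings, no trend, array weights, a replicate block, and arrays left out with the normalization and the tested probe sets kept. Plots were made in Python 3.11.15 with matplotlib 3.10.9.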

Additional observations from a re-analysis of the deposited data

Results flagged for a closer look

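In groups of 4 samples, a sample was taken to stand apart if its gap to the nearest other as a share of the group's range exceeded Dixon's 95% critical value, on log2 values. Over 50 groups, of member probe sets and of marker lists, 5 held such a sample, and chance gives about 1 in 20. Among members, Il1r1 had a signal of 2.60 in Yaa 2, with the other Yaa samples at 89.5 to 120.4. Il1r2 had 291 in wild type 1, with the other wild-type samples at 423 to 447; without wild type 1 its log2 fold change was 1.01. Among marker lists, B cell markers had a mean log2 signal of 5.73 in Yaa 3, erythroid markers of 10.28 in Yaa 2, and stromal and endothelial markers, of which 4 were tested, of 5.93 in wild type 3. Causes were not tested.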

How the results depend on the processing

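Of 612 recomputed fold changes of 38 member and pathway results, 589 kept their direction and 23 turned, and no member passed the threshold in any setting run. Changing the filter, dropping the trend or adding the replicate block leaves a fold change as it was in this balanced design. Those settings could not turn a direction, so the share that kept it is no measure of stability. Il1r2 ranged from 0.71 to 1.34 (lowest limma adjusted p 0.0746) and the brightest Il1rn probe set from 0.51 to 1.40 (lowest limma adjusted p 0.178). With limma array weights 102 probe sets of all rose and 41 fell, and Il1a was at -0.18, Il18 at -0.086, Il18rap at -0.060 and Il18bp at -8.3e-05. Without Yaa 2 and Yaa 3 together 74 rose and 29 fell, and Il1a was at -0.24, Il1b at -0.047, Il18 at -0.16, Il18rap at -0.24, Il18bp at -0.0040 and Gzmb at -0.11. With log2(signal + 1) and with the stricter filter 0 rose, and log2(signal + 1) put Il1r1 at -0.13. With the values as deposited Il1r1 was at -0.0061, Il18 at -0.19, Il18bp at -0.039 and Myd88 at -0.0069, and median-centred arrays put Il18 at -0.11. The Il1rap probe set 1449585_at had -0.17. With single samples left out, the probe sets that rose ran from 1 to 28, the most without Yaa 2, and those that fell from 0 to 3; Il1a ran from -0.0035 to 0.30, Il1r1 from -0.071 to 0.89, Il18 from -0.32 to 0.22 and Il18rap from -0.025 to 0.69. The numbers in the titles were not treated as pairs in the main fit. Same-numbered samples' deviations from their group means correlated at -0.0053, 0.016, -0.37 and -0.13. Differently numbered samples were not compared, and Yaa 2 and Yaa 3 lay far from all others. These correlations therefore cannot decide whether the samples were paired. With the replicate block 0 probe sets were called in place of 1 and no member. The alternatives for the family median and the nearest genes were chosen after seeing the data, and under the stricter filter too few members were left for a median. The cause of each change was not tested. Dim probe sets limit Il1a, Il1rap and the second Il1r1 probe set.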
